A study of Mus musculus with 21 samples.

Results

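The zinc finger genes with symbols from Zfp600 to Zfp999 were taken from the deposited expression table of enriched mouse germ cells by symbol alone, as every row whose name is Zfp followed by a number of 3 digits that starts with 6, 7, 8 or 9. The rule found 145 of 37620 genes in the table, with 142 different symbols, because Zfp664, Zfp708 and Zfp738 each have 2 rows. The RNA came from C57BL/6J (B6) males at 12 days post-partum (dpp), from wild-type animals with no transgene or treatment in the labels, whose germ cells had been enriched by collagenase and trypsin digestion of the testis. The labels call these cells spermatocytes. The table holds 12 libraries, 3 for each of the sample numbers 186wt, 343wt, 444wt and 456wt, and the labels do not say whether the 3 libraries of a number came from separate RNA. The paper describes RNA from 4 replicates of germ cells, which equals the count of sample numbers. The p-values below therefore compare these 4 samples. The spread they rest on may be technical, that of repeated libraries of the same RNA, and then does not measure variation between animals. Levels are in FPKM, the fragments of a gene scaled to the length of its transcripts and to the size of the library, which allows levels of different genes to be compared. Each mean ± SD is over the 4 sample numbers, after averaging the 3 libraries of a number. The other 9 of the 21 samples of the series were not analysed here.

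Most of these genes encode proteins of the C2H2 class, in which pairs of cysteines and histidines hold a zinc ion and fold a short loop that reads bases of DNA. Many also carry a KRAB domain at the amino end, which binds the corepressor Trim28 and through it recruits the H3K9 methyltransferase Setdb1 and the HP1 proteins. KRAB zinc finger genes lie in tandem clusters, and several of them are known to silence retroviral and other transposable elements. Prdm9, which places recombination hotspots in spermatocytes, itself joins a KRAB-related domain and a C2H2 array to a methyltransferase domain.

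The KRAB A box is the short module that contacts Trim28, and members with and without it differed in their median level, with overlapping ranges. It was searched for as a window of 26 residues holding at least 8 of 11 anchor residues in the longest coding sequence of a gene. Of the 144 members with a coding sequence, 90 (62.5%) held a KRAB A box, against 1.42% of 22754 coding genes of the annotation. At least 1 finger, with the spacing C-X2-4-C-X12-H-X3-5-H, was found in 134 members (93.1%), against 3.5% of all coding genes. The box is shown for 8 members, which are Zfp809, Zfp600 and the highest member of each of 6 clusters described further on. Each stretch has 78 bases, is given 5′ to 3′ on the strand of the gene, and has the codons of its anchor residues in capitals. All 8 hold the 11 anchors, each lies within 1 exon, and the letters are those of NCBI build 37.
Zfp809: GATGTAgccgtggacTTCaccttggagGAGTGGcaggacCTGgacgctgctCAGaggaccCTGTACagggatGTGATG
Zfp600: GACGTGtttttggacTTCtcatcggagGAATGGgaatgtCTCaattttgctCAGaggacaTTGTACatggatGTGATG
Zfp640: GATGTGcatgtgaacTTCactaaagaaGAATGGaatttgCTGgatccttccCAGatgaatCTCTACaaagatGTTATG
Zfp945: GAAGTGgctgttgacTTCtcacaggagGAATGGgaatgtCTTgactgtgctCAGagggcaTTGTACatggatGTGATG
Zfp871: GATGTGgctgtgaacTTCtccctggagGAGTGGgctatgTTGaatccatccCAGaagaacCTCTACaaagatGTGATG
Zfp777: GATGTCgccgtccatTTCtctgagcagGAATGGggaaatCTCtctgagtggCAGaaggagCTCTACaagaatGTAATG
Zfp715: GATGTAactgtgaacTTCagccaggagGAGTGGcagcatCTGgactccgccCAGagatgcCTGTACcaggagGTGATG
Zfp866: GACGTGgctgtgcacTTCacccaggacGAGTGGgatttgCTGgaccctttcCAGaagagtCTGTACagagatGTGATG

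These boxes lie at chr9:22039482-22039559 (plus strand, exon 2 of 6 of the transcript used) for Zfp809, at chr4:146160726-146160803 (plus, exon 4 of 5) for Zfp600 and at chr13:66774171-66774248 (minus, exon 1 of 3) for Zfp640. On chromosome 17, the box of Zfp945 lies at chr17:22994248-22994325 (minus, exon 4 of 5) and that of Zfp871 at chr17:32914377-32914454 (minus, exon 2 of 4). The remaining boxes are those of Zfp777 at chr6:47992059-47992136 (minus, exon 3 of 6), of Zfp715 at chr7:50557012-50557089 (minus, exon 3 of 5) and of Zfp866 at chr8:72293051-72293128 (minus, exon 2 of 4). Between any 2 of the 8 boxes, 53.8% to 84.6% of the bases were the same, with a median of 65.4% over 28 pairs.

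The finger is shown for Zfp740 and Zfp711, which hold no KRAB A box and are among the 10 highest members, and for Zfp866 and Zfp600, which hold one. Each line is the first finger of the protein, 63 bases, with the codons of the 2 cysteines and 2 histidines that bind zinc in capitals.
Zfp740: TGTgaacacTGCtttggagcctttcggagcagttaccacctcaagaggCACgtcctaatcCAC
Zfp711: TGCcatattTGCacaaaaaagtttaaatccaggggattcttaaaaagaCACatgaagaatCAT
Zfp866: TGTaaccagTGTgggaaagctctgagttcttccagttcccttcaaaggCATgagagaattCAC
Zfp600: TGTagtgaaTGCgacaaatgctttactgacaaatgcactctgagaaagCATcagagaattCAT

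The 4 fingers lie at chr15:102039241-102039303 (plus strand, exon 5 of 7) in Zfp740, at chrX:109746032-109746094 (plus, exon 9 of 9) in Zfp711, at chr8:72290316-72290378 (minus, exon 4 of 4) in Zfp866 and at chr4:146162921-146162983 (plus, exon 5 of 5) in Zfp600. By this pattern Zfp740 has 2 fingers, Zfp711 has 11, Zfp866 has 12 and Zfp600 has 17. The largest number was 33, in Zfp619, at 1.02 ± 0.107 FPKM (SD, n = 4).

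RNA of nearly all of the zinc finger genes was present in these 12-dpp testis preparations, at low to moderate levels. A mean of at least 0.1 FPKM was reached by 138 of the 145 (95.2%), against 55.3% of all 37620 genes and 74.2% of the protein-coding ones. At least 1 FPKM was reached by 131 (90.3%), against 38.1% and 58.7%. Taken for each sample number alone, 137 to 139 members were at or above 0.1 FPKM and 129 to 131 at or above 1 FPKM. The middle of the distribution was at 4.92 FPKM, with quartiles of 2.07 and 10.7 FPKM. A level of 10 FPKM was reached by 40 members (27.6%), against 21.9% of all genes and 36.1% of the protein-coding ones. A level of 30 FPKM was reached by 5 (3.45%), against 9.8% and 16.2%.

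**Figure D1:**
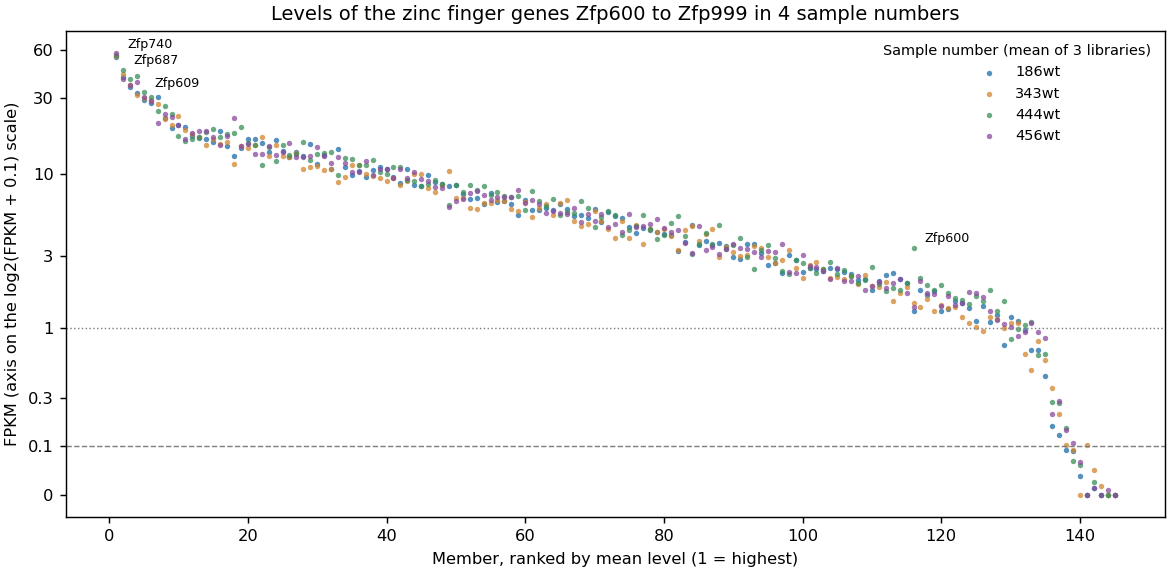
Levels of the 145 zinc finger genes in rank order (horizontal axis, 1 is the highest mean) on a log2(FPKM + 0.1) axis labelled in FPKM, with 1 point for each of the 4 sample numbers, the mean of 3 libraries. The dashed and dotted lines mark 0.1 and 1 FPKM. The points of a gene lie close together along the whole rank order, and Zfp600 stands out by its 444wt point of 3.39 FPKM.

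The highest members were genes without a KRAB A box, several of them known regulators outside retroelement silencing. Zfp740 led with 55.5 ± 1.32 FPKM (SD, n = 4) and was above 95.6% of all genes in the table. Its sample numbers ran from 54.1 to 57.1 FPKM, and its libraries overlapped between all numbers. Zfp687, a partner of the chromatin reader Zmynd8, followed at 41.8 ± 2.49 FPKM. Zfp644, a partner of the H3K9 methyltransferases G9a and GLP, was at 36.8 ± 1.82 FPKM. The main row of Zfp664 was at 35.4 ± 4.67 FPKM, while its second row was at 0.0258 FPKM. Zfp609, which associates with the cohesin loader Nipbl and the Integrator complex, was at 30.4 ± 1.48 FPKM. The order of these 5 does not hold throughout, because the sample numbers of Zfp664 reached from 31.2 to 40.9 FPKM and so overlapped those of Zfp609, Zfp644 and Zfp687.

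Below them came Zfp655 at 29.0 ± 1.16 FPKM and Zfp711 at 25.9 ± 4.16 FPKM. Zfp711, an X-linked gene whose human counterpart is mutated in intellectual disability, is the only member on chromosome X. Zfp622, a maturation factor of the large ribosomal subunit, was at 23.7 ± 2.07 FPKM. Zfp828, also called Champ1, which aligns chromosomes on the spindle, was at 21.6 ± 1.97 FPKM. Zfp706, known for a part in the exit of embryonic stem cells from self-renewal, was at 20.2 ± 2.32 FPKM. A KRAB A box was found in none of the 10 highest members. The coding sequence of Zfp655 does not begin with a start codon, so a box at its amino end could have been missed.

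Members with a KRAB A box had a median level of 3.69 FPKM (quartiles 1.99 and 6.65, n = 90 genes) and those without one a median of 10.5 FPKM (quartiles 4.09 and 17, n = 54 genes). The median of the KRAB members was 3.54, 3.4, 3.57 and 3.39 FPKM in 186wt, 343wt, 444wt and 456wt, or 3.48 ± 0.0954 FPKM (SD, n = 4). The median of the others was 10.4, 9.79, 10.8 and 11.3 FPKM in the same order, or 10.6 ± 0.619 FPKM. The gap was thus far wider than the spread of either median over the sample numbers. That spread comes from the same genes each time and does not measure the spread between genes, whose quartile ranges overlap. The gap is a description of these genes with no test, since genes of a cluster may be related by descent and are then not independent. At least 10 FPKM was reached by 12 of the 90 KRAB members (13.3%) and by 28 of the 54 others (51.9%), and the 5 members at or above 30 FPKM were all among the others. Below 0.1 FPKM were 4 of the 90 KRAB members and 3 of the 54 others. The latter include the second rows of Zfp664 and Zfp738, whose coding sequences of 162 and 85 residues do not begin with a start codon. The other row of Zfp738 does hold a KRAB A box. These counts are too small and too dependent on such rows to relate silence to the box.

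A split in the same direction was present in genes with other symbols. Outside the Zfp600 to Zfp999 range, 233 genes in the table hold a KRAB A box, counted whether or not they have a finger. Of these, 222 (95.3%) reached 0.1 FPKM and 21 (9.01%) reached 10 FPKM, with a median of 3.19 FPKM. The 460 other genes with a finger and no KRAB A box had a median of 8.77 FPKM, and 204 of them (44.3%) reached 10 FPKM. The corresponding 46 members with a finger and no KRAB A box had a median of 11.0 FPKM.

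**Figure D2:**
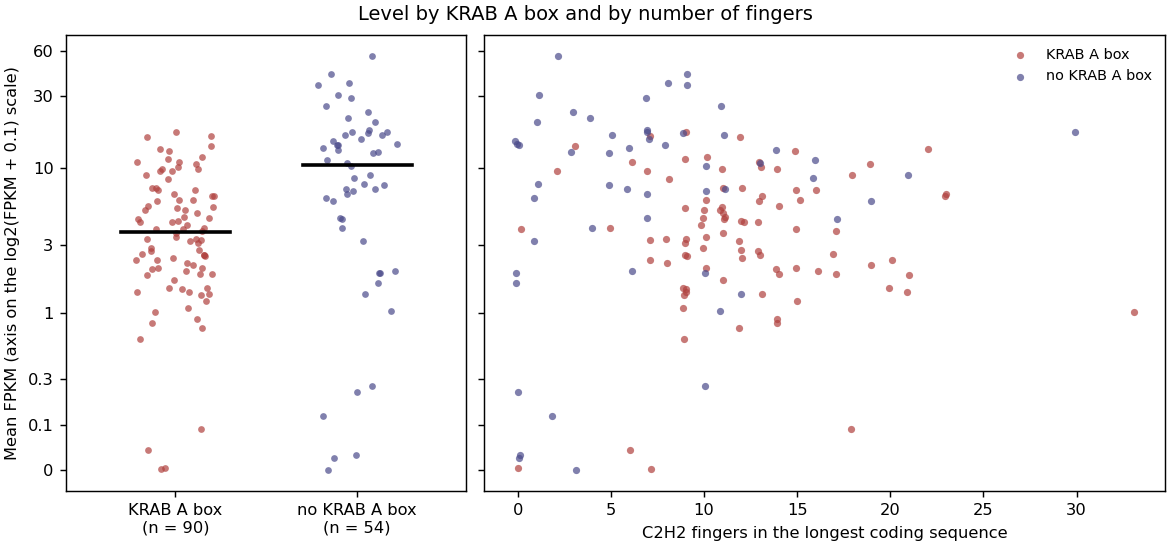
Mean level (vertical axis, log2(FPKM + 0.1) scale labelled in FPKM) of the members with and without a KRAB A box (left; 1 point per gene, bars are medians of 3.69 and 10.5 FPKM) and against the number of C2H2 fingers in the longest coding sequence (right; points shifted slightly sideways). No KRAB A box was found in the 10 highest members, which have at most 11 fingers.

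The number of fingers gave no single order. The 10 members with 0 fingers by this pattern had the lowest median, 1.79 FPKM. Members with 1 to 4 fingers had a median of 11.1 FPKM (n = 14), those with 5 to 9 a median of 6.64 FPKM (n = 41), those with 10 to 14 a median of 4.56 FPKM (n = 50) and those with 15 or more a median of 4.52 FPKM (n = 29). KRAB members had a median of 11.5 fingers and the others of 7, so both features move together. Zfp646, with 30 fingers and no KRAB A box, was at 17.4 ± 0.764 FPKM, the level of Zfp777, the highest KRAB member (17.4 ± 0.708 FPKM, 9 fingers).

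Among the KRAB members with known targets, Zfp809, which silences murine leukaemia proviruses by recognising their primer binding site, was at 9.57 ± 0.783 FPKM. Zfp932, which represses endogenous retroviruses in embryonic stem cells together with its relative Gm15446, was at 12.9 ± 1.79 FPKM. Zfp819, linked to retroelement repression and genome stability, was lower at 1.52 ± 0.29 FPKM, and its libraries ran from 0.85 to 2.75 FPKM. Zfp746, the parkin substrate PARIS, was at 14 ± 1.02 FPKM and Zfp617 at 9.87 ± 0.82 FPKM. These genes span the upper and lower parts of the KRAB range.

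Members without the box and with a known role also spread over a wide range. Zfp652, a repressor that works with the ETO family of corepressors, was at 17.2 ± 1.6 FPKM. Zfp703, a corepressor amplified in breast cancer, was at 14.3 ± 2.49 FPKM and its relative Zfp704 at 7.82 ± 1.99 FPKM. Zfp668 was at 11.2 ± 1.23 FPKM. Zfp830, required for survival of dividing cells, was at 6.29 ± 0.384 FPKM, Zfp618, a partner of Uhrf2, at 3.95 ± 0.353 FPKM and Zfp608, the relative of Zfp609, at 3.19 ± 0.512 FPKM. Zfp609 was about an order of magnitude above Zfp608, and no library of one came near the other. Zfp750, a driver of epidermal differentiation, was near the lower limit at 0.228 ± 0.0682 FPKM.

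The 7 members below 0.1 FPKM were Zfp607, Zfp663, Zfp957, Zfp616, Zfp735 and the second rows of Zfp664 and Zfp738. Zfp607, the nearest to the limit from below, was at 0.0875 ± 0.0191 FPKM and Zfp831, the nearest from above, at 0.127 ± 0.0352 FPKM. Their sample numbers overlapped, since Zfp607 reached 0.11 FPKM in 456wt and Zfp831 was at 0.09 FPKM in 186wt. Zfp663 was at 0.0358 FPKM, Zfp957 at 0.0208 FPKM, Zfp616 at 0.00333 FPKM and Zfp735 at 0.00167 FPKM. The second row of Zfp738 was listed at 0 in all 12 libraries, and 100% of its 100-base stretches also occur in the other row, which was at 2.38 ± 0.3 FPKM. At the estimated depth of 13.1 M to 18.0 M fragments per library, 0.1 FPKM of a transcript of 1 kb is 1.52 fragments in the median library. Over all 12 libraries together, 3 fragments of such a transcript are 0.0164 FPKM, and Zfp616 and Zfp735, each above 0 in 1 library alone, lie below that level.

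The members lie on 20 chromosomes, with 33 on chromosome 7, 19 on chromosome 17, 17 on chromosome 8 and 13 on chromosome 13. On NCBI build 37, 51 of them fall into 7 clusters, defined as at least 5 members with neighbours at most 500 kb apart. The lowest cluster, with a median of 1.85 FPKM over 9 members, lies at chr13:66771705-67788008 and runs from Zfp640 to Zfp738. Its members ran from the second row of Zfp738, listed at 0, to Zfp640 at 16.3 ± 4.99 FPKM. The largest cluster, with 11 members at chr17:21520712-23004101, had a median of 3.86 FPKM and ran only from 1.98 FPKM (Zfp677) to 8.99 FPKM (Zfp945). A second cluster on the same chromosome, at chr17:32908181-33170347, had a median of 4.48 FPKM over 6 members, led by Zfp871 at 6.11 ± 0.357 FPKM.

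Chromosome 7 holds clusters of 5 members at chr7:50442540-50873655 (median 3.62 FPKM) and of 9 members at chr7:134388040-135029510 (median 9.45 FPKM). The first is led by Zfp715 at 10.6 ± 1.19 FPKM, and its 11 other protein-coding genes had a median of 0.183 FPKM. The second is led by Zfp646, which has no KRAB A box, and there the 23 other protein-coding genes had a median of 19.0 FPKM. The cluster at chr6:47769265-48036592 (5 members, median 7.18 FPKM) is led by Zfp777 and that at chr8:71750242-72315077 (6 members, median 9.13 FPKM) by Zfp866 at 16 ± 2.47 FPKM. Members of 1 cluster could differ widely in level. The cluster of chromosome 7 led by Zfp646 holds Zfp764 at 0.777 FPKM, and that of chromosome 8 also holds Zfp964 at 1.49 FPKM.

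**Figure D3:**
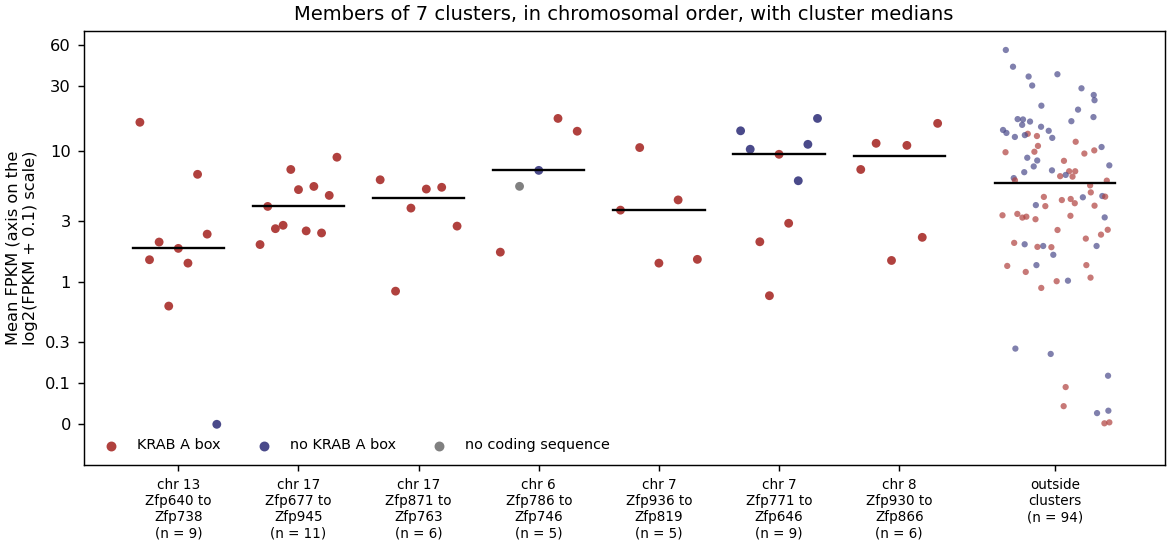
Mean level of each member (vertical axis, log2(FPKM + 0.1) scale labelled in FPKM) in 7 clusters, ordered along the chromosome within a cluster, and of the 94 members outside clusters, with medians as bars. Colours mark the KRAB A box. Cluster medians run from 1.85 FPKM on chromosome 13 to 9.45 FPKM on chromosome 7.

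Markers of testicular cell types differed in level between the 4 samples. Summed over 8 Sertoli cell markers found, levels were 4030, 4169, 2331 and 2502 FPKM in 186wt, 343wt, 444wt and 456wt. Over 9 meiotic prophase markers they were 589, 398, 655 and 567 FPKM, over 7 spermatogonial markers 518, 537, 753 and 645 FPKM, over 6 peritubular myoid markers 553, 261, 695 and 1161 FPKM and over 5 Leydig cell markers 55.0, 107, 15.8 and 59.9 FPKM. No marker of these 5 lists was at 0 on average, while 5 round spermatid markers summed to 2.28 to 4.07 FPKM. The libraries labelled spermatocytes therefore hold RNA of several testicular cell types. Fewer cells of a type and less RNA per cell cannot be told apart in bulk samples. The part of these marker levels in the differences below was not tested.

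A smaller share of the zinc finger genes than of all genes differed between the 4 sample numbers, with smaller differences. With an F-test in limma on log2(FPKM + 0.1), 68 of the 138 members tested (49.3%) passed an adjusted p of 0.05, against 58.2% of all 20795 genes tested. Without 444wt the count was 43. The median range of a member from its lowest to its highest sample number was 0.32 on the log2 scale, against 0.55 for all genes tested and 0.40 for protein-coding genes of at least 1 FPKM. Only Zfp600 and Zfp811 passed the test with a range over 1, that is 1.45% of the members against 10.5% of all genes tested. The coefficient of variation over the sample numbers had a median of 10.3% in members and of 18.6% in all genes tested. Restricted to genes of at least 1 FPKM it was 9.96% in members and 12.8% in protein-coding genes. Of the KRAB members 34 of 86 passed the F-test (39.5%), of the members without the box 33 of 51 (64.7%). In the other genes with a KRAB A box it was 79 of 222 (35.6%). The median range was 0.32 in KRAB members and 0.30 in the others, while the KRAB members had the lower levels given above.

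Each sample number was then compared with the mean of the other 3 in the same fit, so the 4 comparisons share their samples. In 444wt, 39 members were higher (28.3%, against 26.5% of all genes tested) and 12 were lower (8.7%, against 17.8%). In 343wt the direction was the opposite, with 10 members higher (7.25%, against 14.5%) and 38 lower (27.5%, against 25.6%). In 186wt, 15 were higher (10.9%, against 14.8%) and 20 lower (14.5%, against 21.9%). The lower members were 23 in 343wt without its replicate 1 and 13 in 186wt without its replicate 2. In 456wt, 17 were higher (12.3%, against 22.9%) and 12 lower (8.7%, against 13.6%). All genes tested leaned the same way, with a median difference of 0.084 in 444wt and -0.096 in 343wt on the log2 scale, beside 0.103 and -0.102 for the members. With the libraries rescaled by the median ratio, the counts of higher and lower members became 29 and 20 in 444wt, 14 and 21 in 343wt, 20 and 13 in 186wt, and 10 and 15 in 456wt. The lean of 186wt and of 456wt thus turned with the scaling.

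**Figure D4:**
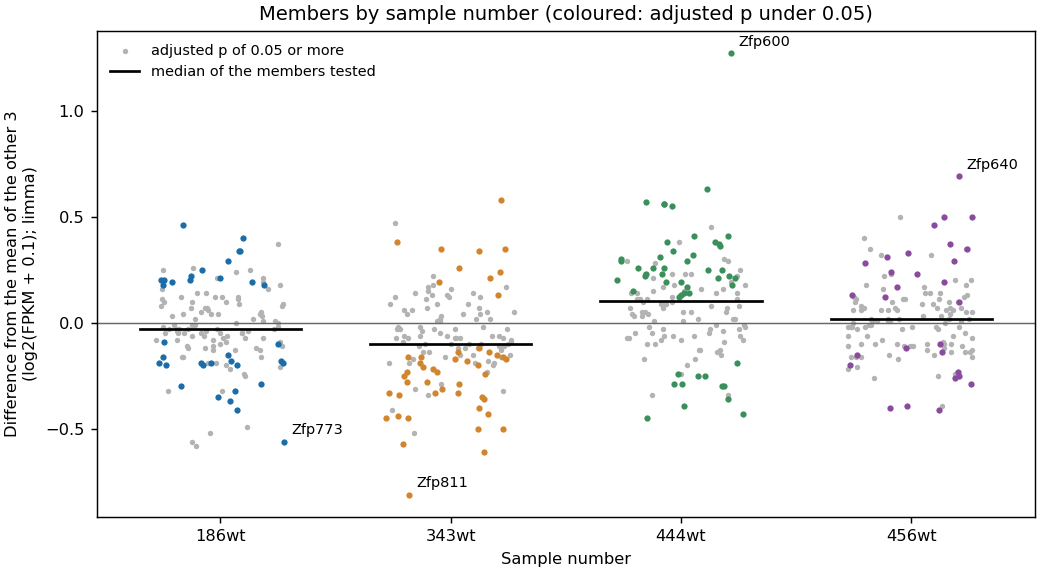
Difference of each sample number from the mean of the other 3 (vertical axis, log2(FPKM + 0.1) scale) for the 138 members tested, 1 point per gene. Coloured points passed an adjusted p of 0.05 in limma, grey points did not, and bars are medians. Zfp600 in 444wt is the largest difference, at 1.27.

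Zfp600 on chromosome 4 (chr4:146124225-146166156) had the largest difference of all members. Its 3 libraries of 444wt were at 3.18, 3.01 and 3.97 FPKM, and the 9 others ran from 0.78 to 1.99 FPKM. All 3 libraries of 444wt were above every other library. The difference of 444wt was 1.27 ± 0.25 (SE) on the log2 scale (adjusted p = 0.0014). The value is uncertain as that of 1 gene, because 65.4% of the 100-base stretches of its coding transcripts also occur in other coding transcripts, and RSEM divides such reads. A gene that the table lists as Rex2 (ENSMUSG00000067919) holds 59.9% of all stretches of Zfp600, Gm13242 holds 31.7%, and a second gene listed as Rex2 (ENSMUSG00000078499) holds 25.1%.

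These relatives lie on the same stretch of chromosome 4, where the genes were looked at after the values of Zfp600 were seen. Gm13242 was at 1.43, 1.84, 4.01 and 2.04 FPKM in 186wt, 343wt, 444wt and 456wt and was 1.16 higher in 444wt (adjusted p = 2.38e-06). The first of the Rex2 genes (ENSMUSG00000067919) was at 1.82, 1.51, 3.39 and 2.06 FPKM and was 0.93 higher in 444wt (adjusted p = 0.0103). The other, at 0.78, 0.907, 2.45 and 0.617 FPKM, did not pass (adjusted p = 0.0938), and neither did Gm13145, which holds 8.2% of the stretches and was at 1.4, 2.63, 3.28 and 2.87 FPKM (adjusted p = 0.0803). Gm13247, which holds 5.9%, was at 3.91, 3.68, 5.98 and 5.61 FPKM and passed (adjusted p = 0.00997). Gm13225, which shares no such stretch with Zfp600 and lies in part within the span of Gm13242 on the same strand, was at 0.79, 0.55, 3.12 and 0.793 FPKM, 2.04 higher in 444wt (adjusted p = 2.81e-05). Within 1 Mb on either side of Zfp600, 12 of 63 other genes tested were higher in 444wt (against 26.5% of all genes tested) and 1 was lower, and their median difference was 0.24, against 0.084 for all genes tested.

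Zfp866, in the cluster of chromosome 8, was at 14.5, 14.9 and 14.9 FPKM in 186wt, 343wt and 456wt and at 19.7 FPKM in 444wt. Its 444wt libraries, 19.84, 19.38 and 19.85 FPKM, were all above the highest other library of 15.76 FPKM. The difference was 0.41 ± 0.03 (adjusted p = 1.52e-06). An exon of Zfp866 overlaps Atp13a1 on the opposite strand, and strand is not stated. Zfp866 also overlaps an exon of Gm20422 on the same strand, and 5.9% of its stretches occur in that gene. Gm20422 was at 0.643, 0.417, 1.24 and 0.437 FPKM in 186wt, 343wt, 444wt and 456wt, so it too was highest in 444wt. The part of these shared reads in the difference of Zfp866 was not tested. Zfp672 was likewise highest in 444wt, at 15.8 FPKM, and lowest in 343wt, at 10.8 FPKM (F-test adjusted p = 6.31e-05). Zfp773, Zfp940 and Zfp941, KRAB genes of chromosome 7, were 0.63 ± 0.15, 0.56 ± 0.11 and 0.57 ± 0.14 higher in 444wt (adjusted p = 0.00586, 0.00142 and 0.00731). In the libraries of Zfp773 and Zfp941 the groups overlapped, and in those of Zfp940 they did not.

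**Figure D5:**
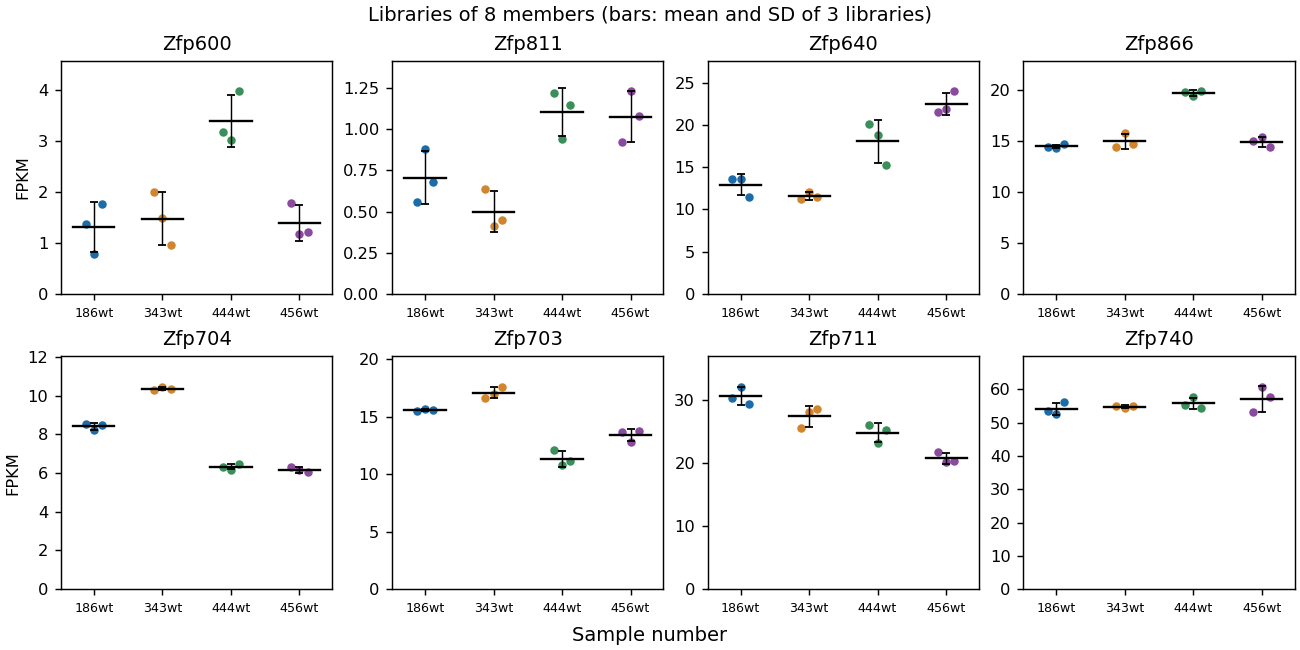
FPKM (vertical axes, starting at 0) of 8 members in the 12 libraries by sample number, with the mean and SD of 3 libraries as bars. Zfp600 and Zfp866 are highest in 444wt, Zfp704 and Zfp703 in 343wt, Zfp640 in 456wt and Zfp711 in 186wt, Zfp811 is lowest in 343wt, and Zfp740 overlaps between all numbers.

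Zfp704 and Zfp703, the 2 relatives without a KRAB A box, were highest in 343wt and had the smallest p-values of all members in the F-test (adjusted p = 1.34e-07 and 4.53e-06). The libraries of Zfp704 were at 10.27, 10.47 and 10.37 FPKM in 343wt, at 8.22 to 8.56 FPKM in 186wt and at 6.03 to 6.45 FPKM in 444wt and 456wt. Its 343wt libraries stood above all others, by 0.58 ± 0.04 (adjusted p = 2.05e-07), and 186wt lay between. Zfp703 was at 17.1 FPKM in 343wt, 15.6 in 186wt, 13.4 in 456wt and 11.3 in 444wt, and no library of 444wt reached those of another number. Sertoli markers were also highest in 343wt and 186wt (4169 and 4030 FPKM) and Leydig markers highest in 343wt and lowest in 444wt (107 and 15.8 FPKM), and their part in these differences was not tested. Zfp706 had the same extremes, with 23.0 FPKM in 343wt and 17.3 FPKM in 444wt. Zfp608 was also lowest in 444wt, at 2.47 FPKM against 3.18 to 3.6 FPKM elsewhere.

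Zfp811 and Zfp872, KRAB genes of chromosomes 17 and 9, were lowest in 343wt. Zfp811 was at 0.5 FPKM there, at 0.707 FPKM in 186wt and at 1.1 and 1.08 FPKM in 444wt and 456wt, a difference of -0.81 ± 0.17 for 343wt (adjusted p = 0.00284). Its libraries overlapped between 343wt and 186wt. Zfp872 was at 0.957 FPKM in 343wt and at 1.41 to 1.61 FPKM in the others (-0.61 ± 0.13, adjusted p = 0.0029), without overlap.

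In 456wt the largest difference was that of Zfp640, a KRAB gene at one end of the chromosome 13 cluster. Its libraries were at 21.55, 21.86 and 23.96 FPKM in 456wt, above those of 444wt at 15.24 to 20.09 FPKM, and those of 186wt and 343wt lay lower still at 11.22 to 13.64 FPKM. The difference of 456wt was 0.69 ± 0.08 (adjusted p = 3.76e-05). Of its 100-base stretches, 30.6% are shared, most of them with Gm10323, which was at 2.86, 3.04, 4.05 and 6.08 FPKM and so ranked 456wt first as well. Zfp820 of chromosome 17 was 0.50 ± 0.09 higher in 456wt (adjusted p = 0.000736). Zfp651 and Zfp821, both without the box, were also highest in 456wt, at 7.96 and 14.8 FPKM, and lowest in 186wt and 343wt (5.45 and 11.2 FPKM).

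The X-linked Zfp711 averaged 30.6, 27.4, 24.8 and 20.8 FPKM in 186wt, 343wt, 444wt and 456wt. Its 456wt libraries were below all others (-0.40 ± 0.05, adjusted p = 3.6e-05) and its 186wt libraries above all others (0.34 ± 0.05, adjusted p = 0.000141). Zfp868, in the same cluster as Zfp866, was highest in 186wt at 14.3 FPKM and lowest in 343wt at 8.85 FPKM, a difference of 0.46 ± 0.07 for 186wt (adjusted p = 0.000496), with overlap between 186wt and 456wt. The 2 members of this cluster thus peaked in different sample numbers. Zfp932 was likewise highest in 186wt, at 15.4 FPKM against 11.1 to 13 FPKM. Its relative Gm15446, which shares 16.8% of its stretches, was highest in 444wt, at 5.97 FPKM.

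Over clusters, the members called by the F-test were 2 of 8 tested in the chromosome 13 cluster, 3 of 11 and 4 of 6 in those of chromosome 17, 3 of 5 on chromosome 6, 2 of 5 and 3 of 9 on chromosome 7 and 4 of 6 on chromosome 8. Together that was 21 of 50 (42.0%) in clusters and 47 of 88 (53.4%) outside them, both below the 58.2% of all genes tested.

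The corepressor through which KRAB proteins act was abundant. Of a list of 23 genes of KRAB silencing, which have 24 rows in the table, Trim28 was the highest at 201 ± 18.9 FPKM, above every zinc finger gene described here. Setdb1 was at 52.0 ± 6.23 FPKM, the HP1 genes Cbx1, Cbx3 and Cbx5 at 51.0 ± 1.54, 110 ± 12.3 and 21.4 ± 1.67 FPKM, and Zfp57, the KRAB protein of imprinted regions, at 5.03 ± 1.66 FPKM. Of the 24 rows, 23 passed the F-test (95.8%, against 58.2%), 17 were higher in 444wt (70.8%, against 26.5%) and 2 lower (8.33%, against 17.8%). In 343wt 3 were higher (12.5%, against 14.5%) and 12 of the 24 lower (against 25.6%). These comparisons are with all genes tested, which reach down to 0.1 FPKM, while Zfp57 was the lowest of the 24 rows. Protein-coding genes of at least 1 FPKM are closer in level. Of those 13102 genes, 78.7% passed the F-test, 36.2% were higher in 444wt and 24.5% lower. In 343wt 20.9% of them were higher and 4581 of the 13102 lower. Trim28 was at 191, 180, 224 and 207 FPKM in 186wt, 343wt, 444wt and 456wt, so that 444wt was highest and 343wt lowest (0.22 and -0.20 on the log2 scale, adjusted p = 5.67e-06 and 1.46e-05). The summed spermatogonial markers, which share Dnmt3b with this list, were also highest in 444wt. The summed meiotic markers were highest in 444wt and lowest in 343wt, as given above. Of the single markers, Gfra1 and Tex101 were highest in 456wt and the others in 444wt. The part of these markers was not tested.

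Exact 100-base stretches of coding transcripts were shared with other genes in a minority of members. Near matches and noncoding transcripts were not searched. Of the 144 with coding transcripts, 111 share no 100-base stretch with a coding transcript of another gene, 14 share over 10% and 5 over 50%. The latter are Zfp600, Zfp781, Zfp960 and the second rows of Zfp664 and Zfp738. All stretches of Zfp781 (3.88 ± 0.536 FPKM) occur in Gm3055, and 66.5% of those of Zfp960 (10.1 ± 0.753 FPKM) occur in Zfp97, so both values depend on how RSEM divided the reads. An exon of 27 members overlaps an exon of another gene, in 16 of them on the opposite strand, where reads cannot be told apart without strand. Among them is Zfp687, which overlaps Pi4kb.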

How the data were processed

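RNA-seq libraries of enriched germ cells from B6 males at 12 dpp were used, 3 for each of 4 sample numbers. The deposited values are FPKM, which the authors computed with RSEM 1.2.8 (fragment length 280 ± 50 bp) after BowTie 0.12.9 had placed both 100-bp ends of each fragment on the NCBI build 37 transcriptome. Reads with 2 or more mismatches were removed. The values are rounded to 2 decimals, and strand is not stated. Depth was estimated from the steps between low FPKM values in 348 genes with transcripts of 300 to 500 bases (13.1 M to 18.0 M fragments per library). The largest error on simulated libraries was 0.467%. Those libraries were built with the same linear effect of transcript length that the estimate assumes. The error given therefore leaves out any departure of the data from that line. The floor of 3 fragments covers counting error only.

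Members were chosen by symbol, and the members, gene lists and tests were chosen with earlier results of these data known. Groups were taken from the sample titles. Differences were fitted with limma 3.58.1 in R 4.3.3 on log2(FPKM + 0.1), over the 20795 genes that averaged 0.1 FPKM or more, with a trend in the variance. An F-test compared the 4 sample numbers, and contrasts set each against the mean of the other 3, with Benjamini-Hochberg adjustment over all genes tested. Fold changes on this scale understate those of low genes. In a simulated table of 20795 genes, 200 received a log2 change of 1 in 1 sample number. The F-test recovered 60% of them, and 5.51% of its calls were false. The data differ from this setting, since 58.2% of all genes tested passed and the median range of a member was 0.32. The share recovered in these data was thus not measured. Genes were placed with GENCODE M1 on NCBI build 37. Fingers, the KRAB A box and shared 100-base stretches (forward strand, coding transcripts only) were counted from its coding transcripts, and printed bases were checked against the genome. Of the 144 coding sequences, 21 do not begin with a start codon. A box was still found in most of these, with Zfp640 among them. It could have been missed in Zfp623, Zfp655, Zfp707, Zfp939 and the second rows of Zfp664 and Zfp738. Python 3.11.15, numpy 2.4.6, pandas 2.3.3, Biopython 1.88 and matplotlib 3.10.9 were used.

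Named genes were the 10 highest members, the 10 with the smallest F-test p, the 3 called members with the largest difference in each contrast, members with a known role, the highest member of each cluster and those next to 0.1 FPKM. Neighbours and relatives that share sequence, further members below 0.1 FPKM, the lowest members of clusters and Zfp619 were named after their values were seen. Alternatives changed the pseudocount, filter, scaling, variance trend, cluster distance and libraries. The KRAB alternatives were added after seeing the data.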

Additional observations from a re-analysis of the deposited data

Results flagged for a closer look

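Over the 4 sample numbers, the highest or lowest value of each of 54 quantities (the named members, the counts and summed levels of all members, and the cluster medians) was compared with the rest by Dixon's criterion at the 95% level. A gap above it was found in 3. Chance would give about 2.7 for quantities chosen without regard to their values. Many of the named members, with Zfp600 and Zfp866 among them, were chosen for differences between the same samples. The number found can therefore not be set against that rate. All 3 were members in 444wt. Zfp600 was at 3.39 FPKM, while the other numbers lay between 1.31 and 1.48 FPKM. Zfp866 was at 19.7 FPKM, with the others at 14.5 to 14.9 FPKM. Zfp617 was at 11.1 FPKM, with the others at 9.38 to 9.58 FPKM, and its contrast in limma (0.23 ± 0.07, adjusted p = 0.0265) passed while its F-test did not (adjusted p = 0.101). Its exons overlap Zfp882 on the same strand. Zfp882 was also highest in 444wt, at 2.55 FPKM against 1.81 to 1.91 FPKM, and did not pass the F-test (adjusted p = 0.26).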

How the results depend on the processing

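The levels depended little on the processing. The count of members at or above 0.1 FPKM was 138 with each sample number left out in turn, and that at or above 1 FPKM 129 to 131. The KRAB median moved by more than its spread over sample numbers with 10 anchor residues required (3.5 FPKM) and outside clusters (3.88 FPKM), and stayed far below the median of the other members. Rescaling by the median ratio changed the number of members lower in 186wt to 13, lower in 343wt to 21, lower in 444wt to 20 and higher in 456wt to 10. With 1 library or 1 sample number left out, the F-test called 43 to 67 members, the lowest without 444wt. Leaving out single libraries gave 13 to 21 members lower in 186wt (13 without its replicate 2) and 23 to 42 lower in 343wt (23 without its replicate 1). Library numbers did not pair the samples, since the deviations of libraries with the same number had a median correlation of -0.007 and exceeded 0.1 in 1 of 18 pairs. With the replicate block, the F-test called 67 members. Of 42 named members tested under up to 18 alternatives each, none reversed, and 13 changed their call in at least 1. Zfp809 in 186wt (adjusted p = 0.0474) lost its call in 12 of them and Zfp617 in 444wt in 4. Depth limits the members below 0.1 FPKM, and 4 samples without separate RNA named in the labels limit the tests. For the changes under these alternatives, the cause was not tested.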
